A study of Mus musculus with 17 samples.

Results

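Heat shock proteins are chaperones that keep other proteins folded, and 10 of their genes were followed here in epididymal white adipose tissue, a visceral fat pad of the male abdomen. The mice were adult males of strain C57BL/6J. The genes were listed by name and found on the array by gene name or alias: Hspa1a, Hspa1b, Hspa8, Hsph1, Dnajb1, Hsp90aa1, Hspb1, Hspb8, Hspd1 and Hspe1. Hsph1 stands under its older name Hsp110 in the array files. They were read by 16 probes of the 41174 on the array, all of which were among the 25513 probes tested, and each gene is represented by its brightest probe among 18130 tested genes. One group ate a purified high-fat diet with 30% of energy as fat and carbohydrate of high glycemic index (HGI, 9 mice), and the other ate a high-fat diet of the same fat content with carbohydrate of low glycemic index (LGI, 8 mice). Both groups were wild type and were fed for 13 weeks, so no group here ate a low-fat diet. RNA of each mouse was labelled with Cy5 and hybridized against a Cy3 pool of all samples, and a value below is the log2 ratio of the mouse to that pool. A value of 0 is not the mean of these mice for every gene. The epididymal gene Lcn5 averaged -4.06 in HGI and -4.18 in LGI mice, and the cause was not tested. The labels give each sample a number and no further detail of the animal, so a p-value here reflects only how much these samples vary. In tissue of mixed cells, fewer cells of a type and less RNA per cell cannot be told apart.

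The cytosolic chaperones work as a relay. HSP70 proteins (Hspa1a, Hspa1b, Hspa8) hold unfolded proteins with the help of a J-domain partner of the HSP40 family (Dnajb1) and a nucleotide exchange factor of the HSP110 family (Hsph1), and HSP90 (Hsp90aa1) finishes many of their clients. Small heat shock proteins (Hspb1, Hspb8) hold unfolding proteins without using ATP, and the chaperonin Hspd1 with its lid Hspe1 folds proteins inside mitochondria. The transcription factor HSF1 turns on many of these genes when proteins unfold, by binding repeats of the unit GAA in alternating direction in their promoters.

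Stretches of the promoters are shown because several of these genes are known targets of HSF1. The 250 bases before each transcription start were taken from RefSeq (GRCm38.p6), and searched on both strands for a pair of units head to head (GAANNTTC), a pair tail to tail (TTCNNGAA), and the longer runs GAANNTTCNNGAA and TTCNNGAANNTTC, which contain both pairs. Capitals mark the match.
Hspa1a, chr17:34972245-34972268, minus strand: aactgctgGAAGATTCctggcccc
Hspa1b, chr17:34959327-34959350, minus strand: aactgctgGAAGATTCctggcccc
Hsph1, chr5:149636354-149636377, minus strand: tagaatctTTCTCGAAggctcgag
Hspb1, chr5:135887794-135887817, plus strand: caacaagaGAAGTTTCcagatggg
Hspb1, chr5:135887814-135887837, plus strand: tgggggcaGAACCTTCctggcccc
Hspe1, chr1:55088053-55088082, plus strand: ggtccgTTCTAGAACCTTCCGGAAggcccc
Hspd1, chr1:55088053-55088082, minus strand: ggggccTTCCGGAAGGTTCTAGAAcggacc
The Hspe1 and Hspd1 stretches are the same place read on opposite strands, between neighbouring genes. It holds a run of 18 bases, and the longer run occurs in 0.466% of the 32851 mouse promoter windows in the table. A head to head pair occurs in 6.69% and a tail to tail pair in 7.17% of the windows. The Hspa1a and Hspa1b windows differ at 3 of 250 bases and are 98.8% identical, and the coding sequences of these neighbouring genes are known to be near copies as well, so their probes may read each other's RNA and their values are uncertain as separate genes. The table gives Hspd1 more than 1 start site, and the match lies before the second, while the window of the first held none. The windows of Dnajb1 and Hspb8 held none of these letters, and Hspa8 and Hsp90aa1 were not searched.

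Adipocyte genes were read as a check of the samples. Adipoq, Plin1, Fabp4 and Lep, which encode the adipocyte products adiponectin, perilipin, a fatty acid carrier and leptin, were all among the tested genes and none passed the threshold between the diets (limma, adjusted p between 0.616 and 0.93). Their mean log2 Cy5 was 15.5, 12.5, 16 and 11.9 in that order. In the full list of 8 adipocyte genes 0 passed, with 2 at an unadjusted p under 0.05 by limma. Arrays HGI 9 and HGI 10 stood apart. Their log ratios had an r of 0.81 with each other over all genes, while each had an r of -0.05 to 0.14 against the remaining 15, and those 15 had an r of 0.37 to 0.83 between them. Genes of seminal vesicle secretion were high in these arrays: Svs2 was at 2.51 and 2.16 in HGI 9 and HGI 10, against a median of -4.28 in the other arrays, Svs4 was at 0.70 and 1.21 against -4.93, and Svs5 at 0.28 and 0.41 against -2.24. LGI 9 was high in genes of cilia and sperm, with Tekt1 at 1.57, Dynlrb2 at 1.67 and Prm1 at 0.63, against medians of -0.43, -0.63 and -0.67 over the arrays other than HGI 9 and HGI 10. Values without HGI 9 and HGI 10 are given beside the results that they change most. By scan time the arrays fall into the first 8 (HGI 1, 3, 5 and 9; LGI 2, 6, 7 and 9) and the later 9 (HGI 2, 4, 6, 7 and 10; LGI 1, 4, 5 and 8). That split is a time of scanning and not a recorded batch of animals, extraction or labelling.

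Over all mice, none of the 10 heat shock genes passed the threshold between the diets. By limma with Benjamini-Hochberg adjustment over all genes, 0 of 10 members passed, as did 0 of 18130 genes (0%), and the adjusted p of the members lay between 0.668 and 0.998. At an unadjusted p under 0.05, 0 of 10 members stood against 1404 genes (7.74%). The median difference, HGI minus LGI, was -0.02 over the members and 0.01 over all genes.

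**Figure D1:**
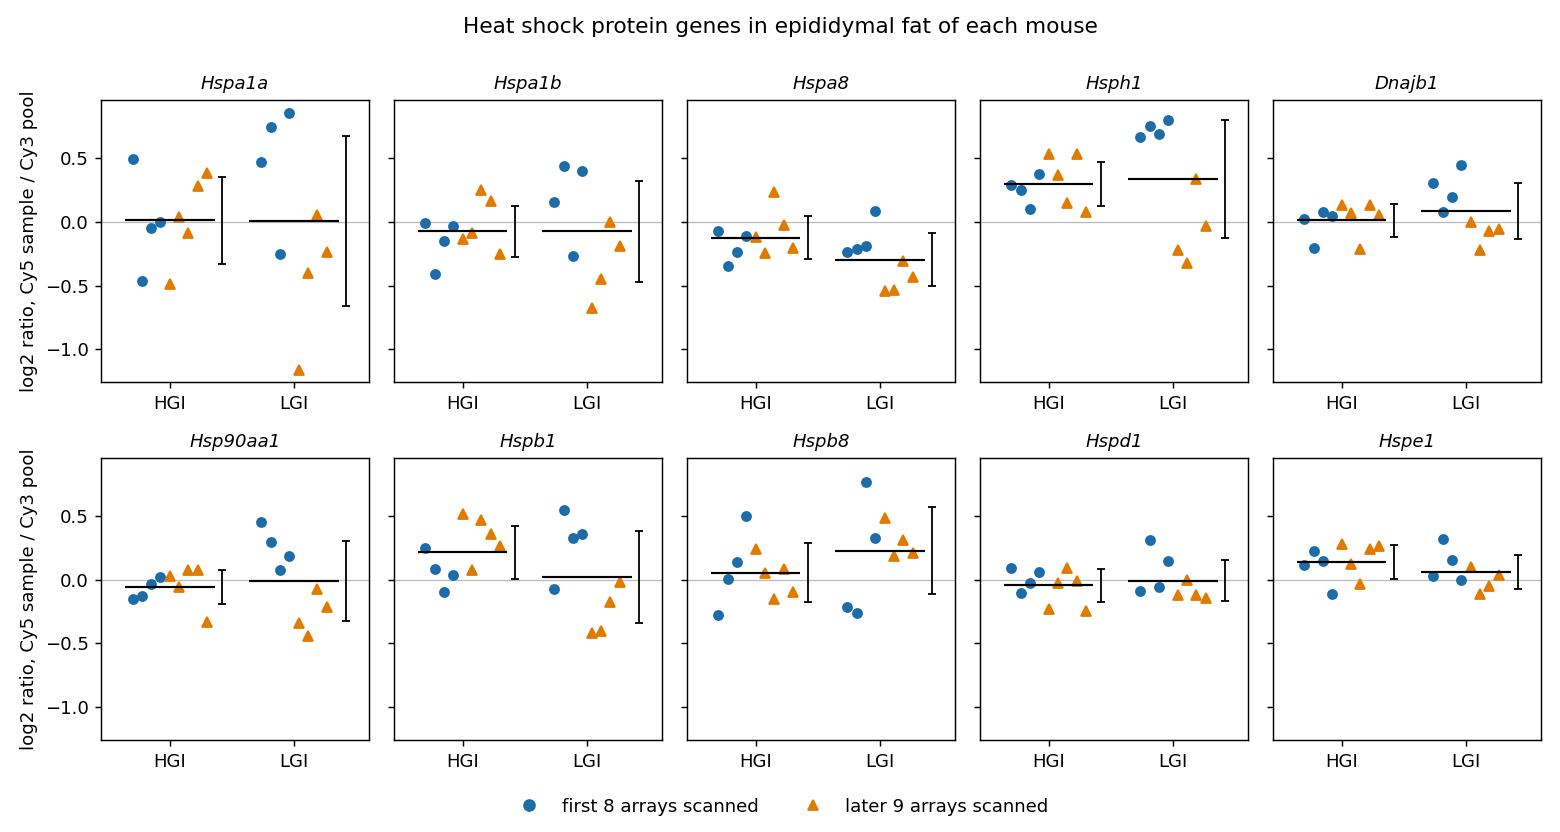
Log2 ratio of each mouse to the pool (vertical axis) for the 10 genes, with 9 HGI mice left of 8 LGI mice in each panel, circles for the first 8 and triangles for the later 9 arrays scanned. Lines are means and bars are SDs. On these used probes the LGI mice separate by scan time for Hsph1, Hspa8, Dnajb1 and Hsp90aa1 while the HGI mice do not.

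The inducible HSP70 genes Hspa1a and Hspa1b, nearly silent in unstressed tissue and strongly induced by heat, had nearly the same mean in both diets. Hspa1a ran from -0.49 through a median of 0.00 to 0.49 in HGI mice, and from -1.16 through -0.09 to 0.86 in LGI mice. Its HGI mice lie inside the range of the LGI mice. The difference was 0.00 ± 0.22 (SE; HGI n = 9, LGI n = 8), with an adjusted p of 0.998 by limma. HGI 9 at 0.49 and HGI 10 at 0.39 were its highest HGI mice. Without them the Hspa1a difference was -0.118 ± 0.225, with an adjusted p of 0.941 by limma. Hspa1b ran from -0.41 through -0.09 to 0.25 in HGI mice and from -0.68 through -0.10 to 0.44 in LGI mice, a difference of 0.00 ± 0.13. In the authors' deposited values the Hspa1b difference was 0.19, with an adjusted p of 0.758 by limma.

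Hspa8, the HSP70 that cells make at all times, and its partners also overlapped. Hspa8 ran from -0.34 through -0.12 to 0.24 in HGI mice, and from -0.54 through -0.27 to 0.09 in LGI mice. Of the 9 HGI mice, 8 lay above the LGI median, and the difference of 0.17 ± 0.09 had an adjusted p of 0.668. Hsph1 ran from 0.08 through 0.29 to 0.54 in HGI mice, and from -0.32 through 0.50 to 0.80 in LGI mice. The LGI mice were both the highest and the lowest, and the difference was -0.04 ± 0.15. Dnajb1 differed by -0.07 ± 0.08 and the HSP90 gene Hsp90aa1 by -0.05 ± 0.11.

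The small heat shock protein Hspb1 ran from -0.10 through 0.25 to 0.51 in HGI mice, and from -0.42 through -0.04 to 0.55 in LGI mice. The difference was 0.20 ± 0.13 with an adjusted p of 0.736 by limma. Hspb8, which works with the co-chaperone BAG3 in clearing misfolded proteins, ran from -0.28 through 0.05 to 0.50 in HGI mice and from -0.27 through 0.26 to 0.77 in LGI mice. Its difference was -0.17 ± 0.13, opposite in sign to Hspb1, and neither passed. It was -0.10 without HGI 9 and HGI 10, and -0.09 without LGI 7. In mitochondria, Hspe1 differed by 0.08 ± 0.07 and Hspd1 by -0.04 ± 0.07. The 95% interval of the Hspd1 difference ran from -0.19 to 0.11, and that of Hspa1a from -0.46 to 0.46. The wide spread of Hspa1a between mice gives it the wider interval.

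The arrays scanned first and those scanned later gave diet differences of opposite sign. All 10 genes were lower in HGI mice among the early arrays, and 9 of the 10 were higher in HGI mice among the later arrays, Hspb8 being the other. Having both signs in this order held for 9 of 10 members and for 3727 of 18130 genes (20.6%). The members had a median difference of -0.25 in the early set and 0.27 in the late set, while that of all genes was 0.01 in both. These arrays were split with earlier results known, so the pattern carries no independent support.

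The values of each mouse show where the change of sign lay. For Hsph1 the first 8 arrays gave 0.10, 0.25, 0.38 and 0.29 in HGI mice, against 0.76, 0.80, 0.69 and 0.67 in LGI mice. All 4 HGI mice lay below all 4 LGI mice. The later 9 arrays gave 0.53, 0.54, 0.15, 0.37 and 0.08 in HGI mice, against -0.32, -0.22, -0.03 and 0.34 in LGI mice. Here only LGI 8 reached into the HGI range. For Hsp90aa1 the first 8 arrays gave -0.04, -0.13, 0.02 and -0.15 in HGI mice against 0.29, 0.19, 0.07 and 0.46 in LGI mice, again without overlap. The later 9 gave 0.07, 0.03, 0.07, -0.06 and -0.33 in HGI mice, against -0.45, -0.34, -0.22 and -0.07 in LGI mice. HGI 10 was the HGI mouse that overlapped. These 2 genes were the members with every HGI mouse below every LGI mouse in the first 8 arrays, which 1.51% of all genes were.

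Hspb1 and Hspa8 separated in the later arrays instead. For Hspb1 the later 9 arrays gave 0.36, 0.51, 0.47, 0.07 and 0.26 in HGI mice, against -0.41, -0.42, -0.02 and -0.17 in LGI mice. The first 8 gave -0.10, 0.08, 0.03 and 0.25 in HGI mice, against 0.55, 0.36, 0.33 and -0.07 in LGI mice, overlapping through LGI 9 alone. For Hspa8 the later 9 gave -0.02, -0.12, 0.24, -0.25 and -0.21 in HGI mice, against -0.53, -0.54, -0.43 and -0.31 in LGI mice. Every HGI mouse lay above every LGI mouse in the later arrays for these 2 members, which held for 0.557% of all genes. The exact permutation p was 0.0159 for each, two-sided and over 126 labellings, with differences of 0.59 ± 0.12 and 0.38 ± 0.11 (SE; HGI n = 5, LGI n = 4).

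In the first 8 arrays, where 70 labellings allow no two-sided p below 0.0286, Hsph1 with -0.47 ± 0.08 and Hsp90aa1 with -0.33 ± 0.10 reached that exact permutation p (SE; n = 4 each). For Hspa1a the early arrays gave a difference of -0.46 ± 0.25 and the later arrays 0.46 ± 0.22, with exact permutation p of 0.229 and 0.151. Hspa1b was at -0.33 ± 0.16 and 0.32 ± 0.15. Neither HSP70 copy separated the diets without overlap in either set of arrays. Hspb8, lower in HGI mice in both sets, was at -0.06 ± 0.24 in the early arrays, with an exact permutation p of 0.886, and at -0.27 ± 0.11 in the later arrays, with an exact permutation p of 0.0317. No gene of the array passed limma's adjusted threshold within either set.

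**Figure D2:**
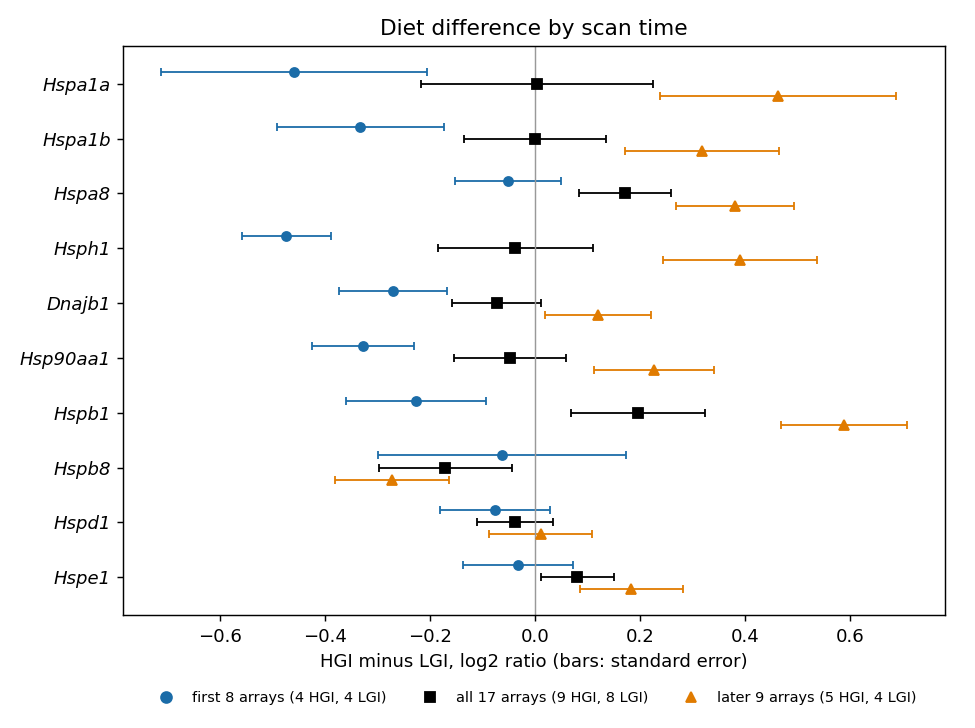
Difference HGI minus LGI (log2 ratio, horizontal axis, bars are limma standard errors) for each gene in the first 8 arrays, in all 17 and in the later 9. For 9 of the 10 genes the early and late points lie on opposite sides of 0, and Hspb8 is below 0 in every set.

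The change of the diet difference between the scan sets was tested in limma as an interaction over all genes. At an unadjusted p under 0.05 it stood for 7 of 10 members and for 186 of 18130 genes (1.03%). Ordered by that p, Hsph1 was at place 1, Hspb1 at 2, Hsp90aa1 at 4, Hspa1b at 17, Hspa8 at 18, Dnajb1 at 24 and Hspa1a at 56. Among the other genes of the response, Hsp90ab1, the constitutive HSP90, was at place 7. The change, later minus first, was 0.86 ± 0.18 for Hsph1, 0.82 ± 0.18 for Hspb1 and 0.56 ± 0.15 for Hsp90aa1. After adjustment 0 genes passed, and the smallest adjusted p of any gene was 0.9999. Hspe1 was at place 947, and Hspb8 and Hspd1 were farther down the order, at 5972 and 8043. Without HGI 9 and HGI 10 the count was again 7 of 10 members, and it was 437 genes (2.41%). Without LGI 9 it was 7 members as well, but the share over all genes was not counted there. The members and the split were chosen with earlier results of these arrays known, so these places and counts carry no independent support. Several of these genes also varied together, and Hspa1a and Hspa1b may read each other's RNA, so the 7 are not separate results.

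**Figure D3:**
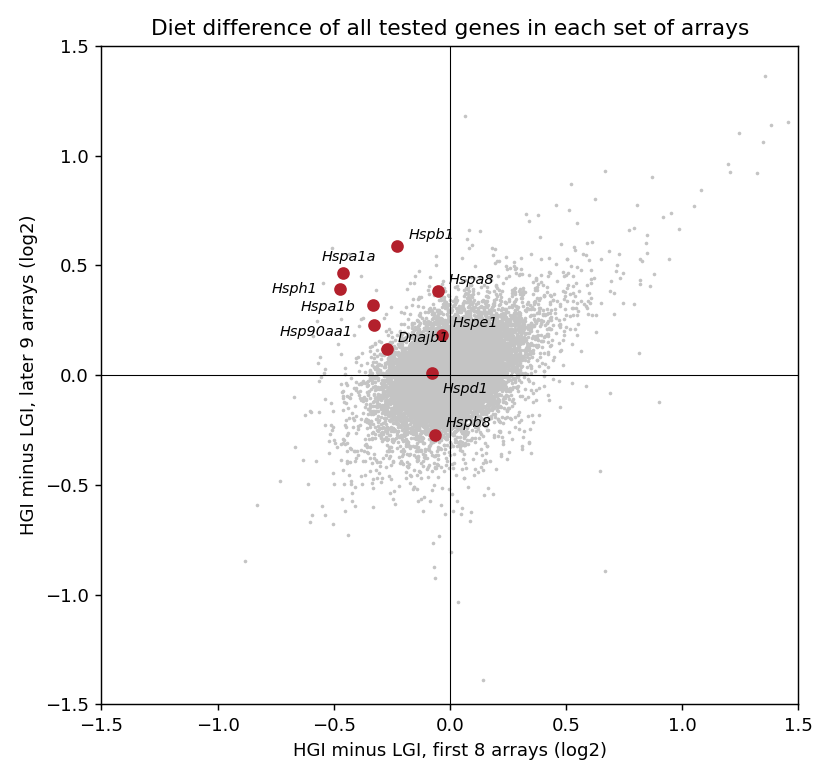
Difference HGI minus LGI in the first 8 (horizontal) against the later 9 arrays (vertical), both in log2, for all tested genes (grey; 7 lie outside the axes) and the 10 members (red). Of the 10 members, 9 lie at the upper left of the crossing lines, and Hspb8 lies below the horizontal line.

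Taken diet by diet, the scan sets lay farther apart in LGI mice than in HGI mice. Hsph1 averaged -0.06 ± 0.29 in the later and 0.73 ± 0.06 in the first LGI arrays (SD, n = 4 each), while in HGI mice it averaged 0.33 ± 0.21 in the later and 0.26 ± 0.12 in the first arrays (SD, n = 5 and 4). The later minus first difference was -0.79 in LGI mice and 0.08 in HGI mice. In LGI mice the later arrays lay below the first without overlap for 4 members, Hsph1, Hsp90aa1, Hspa8 and Dnajb1, and for 1.57% of genes. The exact permutation p for each of the 4 was 0.0286, the smallest that 4 against 4 arrays allow. These are values of the used probes. The second probes of Hspa8 and Dnajb1, above background on all arrays, overlapped between the scan sets in LGI mice. For Hspa8 LGI 8 of the later arrays read 0.14 and LGI 7 of the first 0.11. For Dnajb1 LGI 5 of the later arrays read 0.06 and LGI 7 of the first -0.12. In HGI mice 0 members separated in either direction, and 0.4% of genes did. The median of the members, later minus first, was 0.06 in HGI mice and -0.43 in LGI mice, and over all genes it was 0.00 in HGI mice and -0.01 in LGI mice. Hspb1 was the member whose HGI mice moved most, by 0.27, with an exact permutation p of 0.0476. The share of spots with Cy5 above background had a median of 60.7% in the later and 63.0% in the first arrays. In LGI mice it ran from 54.2% (LGI 1) to 64.0% in the later and from 61.1% to 66.7% in the first arrays. In HGI mice it ran from 57.65% to 63.6% in the later and from 60.6% to 65.9% in the first. The part of this share in these differences was not tested.

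Taken over both scan sets, the SD of most members was larger in LGI mice, and that SD includes the gap between the sets. The SD was 0.17 in HGI and 0.46 in LGI mice for Hsph1, 0.34 and 0.67 for Hspa1a, 0.20 and 0.40 for Hspa1b, and 0.13 and 0.32 for Hsp90aa1. The ratio of the LGI to the HGI SD was higher for Hsph1 than for 99.1% of genes and higher for Hsp90aa1 than for 98.4%. It exceeded 1 for 9 of the 10 members, Hspe1 being the other at 0.98. Over all tested genes the median SD was 0.17 in HGI and 0.15 in LGI mice, the opposite order. Without HGI 9 and HGI 10 the HGI SD was 0.17 for Hsph1, 0.28 for Hspa1a and 0.07 for Hsp90aa1. The values over all genes and the places among them keep HGI 9 and HGI 10. Within a scan set the LGI mice were not always the more variable. For Hsph1 the SD was 0.12 in HGI and 0.06 in LGI mice of the first 8 arrays, and 0.21 and 0.29 in the later 9. For Hsp90aa1 it was 0.08 and 0.16 in the first 8, and 0.17 and 0.16 in the later 9. No test of the spread was made.

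**Figure D4:**
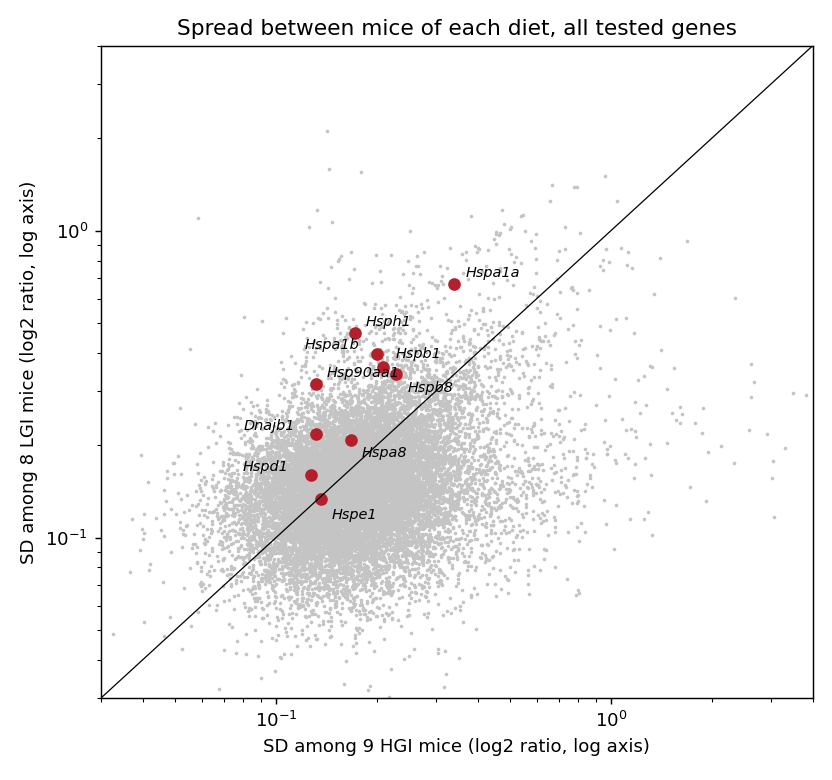
SD of the log2 ratio among the 9 HGI mice (horizontal) and the 8 LGI mice (vertical), on log axes, for all tested genes (grey; 6 lie outside the axes) and the 10 members (red), with the line of equal SD. Of the members, 9 lie above the line, Hsph1 and Hsp90aa1 farthest from it, and Hspe1 lies just under it.

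Across the 17 arrays each used probe varied more in Cy5 than in Cy3. For the used probes the SD between arrays was 0.13 to 0.51 in log2 Cy5 and 0.04 to 0.13 in log2 Cy3, the shared pool. The channels were closest in SD for Hspd1, at 0.18 in Cy5 and 0.13 in Cy3. The ratio of a gene correlated at 0.82 to 0.99 with its Cy5 value across arrays, which a shared Cy3 pool largely sets in advance. All used probes were above background on all 17 arrays and none had a saturated Cy5 spot. Hspb7, a small heat shock gene that the array carries in 10 spots, varied within an array by an SD of 0.07 to 0.23. The SD between its array means was 0.32. This is the spread of 1 dim probe, with a mean log2 Cy5 of 7.36 for Hspb7 against 7.59 to 13.1 for the used probes. The spread between spots was not taken for the members.

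The cytosolic genes varied together from mouse to mouse. Of the 45 pairs of members, 36 had a Pearson r above 0 over the 17 arrays and 21 had an r above 0.5. Among the 6 genes of the HSP70, HSP110, HSP40 and HSP90 relay, all 15 pairs were above 0, with a median of 0.61. After Benjamini-Hochberg adjustment over the 45 pairs, 12 passed for Pearson's r and 11 for Spearman's rho, by a permutation test with 100000 resamples. The members were chosen with results of these arrays known, so these counts describe the set. The resamples did not keep the scan sets apart, and no share over pairs of all tested genes is given beside these counts.

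**Figure D5:**
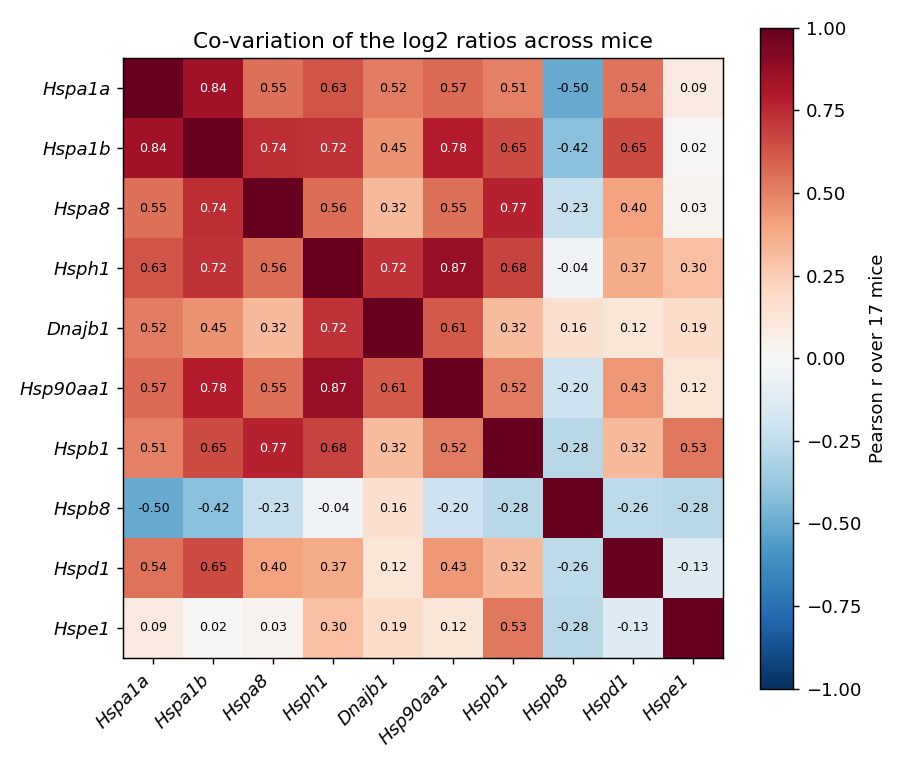
Pearson r of the log2 ratios over 17 mice for each pair of the 10 genes (both axes), from blue at -1 to red at 1. The HSP70, HSP110, HSP40 and HSP90 genes and Hspb1 form a red block, and the row of Hspb8 is blue apart from Dnajb1.

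The closest pair joined HSP110 to HSP90. Hsph1 and Hsp90aa1 had an r of 0.87 (permutation p 1e-05, adjusted 0.00045; the smallest p that the resamples give) and a rho of 0.84 (permutation p 6e-05, adjusted 0.0027). Within the sets it was 0.77 (first 8) and 0.87 (later 9), and it was 0.55 in HGI and 0.92 in LGI mice, and 0.79 without LGI 1 and LGI 4, the arrays farthest from the Hsph1 median. Hspa1a and Hspa1b had an r of 0.84 (permutation p 4e-05, adjusted 9e-04) and a rho of 0.76 (permutation p 9e-04, adjusted 0.00864). That r was 0.96 in the first 8, 0.70 in the later 9 arrays, and 0.71 without LGI 4 and LGI 6. How far the probes of these near copies read each other's RNA was not tested.

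Hspb1 was closest to the constitutive HSP70, and its r with the other small heat shock gene, Hspb8, was -0.28. With Hspa8 it had an r of 0.77 (permutation p 0.00023, adjusted 0.00259) and a rho of 0.74 (permutation p 0.00096, adjusted 0.00864), with 0.35 among the first 8 arrays and 0.89 among the later 9, and 0.69 without HGI 6 and LGI 4. Hspb8 was below 0 with 8 of 9 members, lowest with Hspa1a at -0.50 (permutation p 0.0398, adjusted 0.0814) and a rho of -0.45 (permutation p 0.0705, adjusted 0.144). None of its 9 pairs passed. Hspe1 and Hspd1, which share the promoter stretch above, had an r of -0.13 (permutation p 0.614, adjusted 0.70) and a rho of -0.25 (permutation p 0.336, adjusted 0.44), and r was 0.20 among early and -0.57 among later arrays. The sign of this pair changed with the normalization, to 0.52 with median centring.

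Taken over both scan sets, r between members was higher in LGI mice, and that r includes the gap between the sets. The part of this gap in the LGI values was not tested. The median r of the 15 relay pairs was 0.23 in HGI and 0.82 in LGI mice, and that of all 45 pairs was 0.15 in HGI and 0.61 in LGI mice, values over 9 and 8 arrays that were not tested against each other. Without HGI 9 and HGI 10 the median of the 15 pairs over the other arrays was 0.71. For Hspa1b the lowest LGI mice were LGI 4 at -0.68 and LGI 1 at -0.45, both scanned later, and the highest were LGI 2 at 0.44 and LGI 6 at 0.40, both scanned first. LGI 4 also had the lowest Hspa1a of all mice, -1.16, and LGI 6 the highest, 0.86.

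Ranked over all tested genes, the genes most like Hspa1b across the 17 mice included 3 other members among the 10 named here, which leave out probes with clone or model names. Hspa1a came first at an r of 0.84, then Hsp90aa1 at 0.78, Etl4 at 0.77, Zfp281 and Thbs1 at 0.76, Pnrc1 at 0.75, Hspa8 and Orai1 at 0.74, Pitpnc1 at 0.73 and Aplp2 at 0.72. Of the remaining members Hsph1 was at place 12, Hspd1 at 49, Hspb1 at 51, Dnajb1 at 708, Hspe1 at 8336 and Hspb8 at 17299. Thbs1, which encodes the matrix protein thrombospondin, had a diet difference of -0.55 among the first 8 arrays and 0.42 among the later 9. Every gene named here as most like Hspa1b had that order of signs. Hspa1b has it too, so picking genes by likeness to it largely sets the order in advance, and it carries no support. For Hspd1 both of the highest places went to such unnamed probes, at 0.79 and 0.78, and the nearest genes with a name were Ndrg3 at 0.78, Rrs1 at 0.76, Spink2, Mitf and Chst1 at 0.75, Agpat3 at 0.73, Ccdc69 at 0.72, and Ppp1r9a, Epm2a and Lgals4 at 0.71. Its own partner Hspe1 was at place 12432.

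No gene of the rest of the heat shock response passed between the diets. Of 54 further genes, 51 were measured, Hsf2, Hspb3 and Hspb6 being too dim, and 0 of the 51 passed limma's adjusted threshold. An unadjusted p under 0.05 stood for 4 of the 51, near the share of 7.74% over all genes. Of the 51, 21 were higher and 30 lower in HGI mice, with a median difference of -0.01. The lowest were Dnaja4 at -0.30 ± 0.25, Bag1 at -0.26 ± 0.07 and Dnaja2 at -0.26 ± 0.12. Bag1 is a nucleotide exchange factor of HSP70, and Dnaja2 and Dnaja4 are J-domain partners. The highest were Cryab at 0.24 ± 0.09, Serpinh1 at 0.21 ± 0.13 and Fkbp4 at 0.21 ± 0.15, which encode a small heat shock protein, a collagen chaperone and an HSP90 cochaperone. The adjusted p of these 6 lay between 0.52 and 0.798. Single arrays carried some of these values. Fkbp4 was at 0.52 in HGI 9 and 0.42 in HGI 10, against a median of -0.48 in the other arrays apart from LGI 9, and its difference without HGI 9 and HGI 10 was 0.01. Serpinh1 was then at 0.33. Dnaja4 was at 1.61 in LGI 9, against a median of -0.59 in the arrays other than these 3, and its difference without LGI 9, a setting chosen after seeing the data, was -0.04.

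By role, the HSP90 family and its cochaperones came nearest to the members. Of its 12 genes, 7 were lower in the first 8 and higher in the later 9 arrays, against 20.6% of all genes. An unadjusted interaction p under 0.05 stood for 3 of them, against 1.03% of all genes. Those were Hsp90ab1, Chordc1 and St13, named after their values were seen. The mean of the 12 genes correlated at 0.68 with Hspa1b and 0.66 with Hsph1 over 17 mice. Among the 9 J-domain genes 3 had the same order of signs, and among the 8 subunits of the cytosolic chaperonin TRiC 1 did. With so few genes in each list, these counts were not set apart from the 20.6% of all genes. The 4 measured small heat shock genes of this list were all higher in HGI mice, as were 52.6% of all genes, and none passed the threshold. Of the small heat shock members, Hspb1 was higher and Hspb8 lower. The mean of the 4 correlated at -0.44 with Hspa1b, while Hspb1 did so at 0.65 and Hspb8 at -0.42.

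Lists of other cell types and of stress were set beside the members, with r over the 17 mice given as a description. The mean of 16 immediate early genes, which are known to rise when tissue is handled, correlated at 0.32 with Hspa1b and at 0.26 with Hsph1. It ran from -0.15 to 0.15 in HGI mice and from -0.24 to 0.04 in LGI mice. The mean of 15 chaperones and stress genes of the endoplasmic reticulum correlated at 0.15 with Hspa1b, that of 8 adipocyte genes at -0.34, and that of 7 macrophage genes at -0.10. With Hspd1 the macrophage mean had an r of -0.30 and the mean of 4 mesothelial genes 0.37. The macrophage mean ran from -0.27 to 0.61 in HGI mice and from -0.13 to 0.16 in LGI mice. The part of these lists in the heat shock values was not tested.

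A further probe of the same gene did not always show the pattern. The 2 probes of Hspa1a correlated at 0.94, and the second had differences of -0.40 among the first 8 arrays and 0.55 among the later 9. The second probe of Dnajb1 correlated at 0.11 with the first and had -0.07 and 0.25. That of Hspa8 correlated at 0.47 and was higher in HGI mice in both sets, by 0.13 and 0.30, and that of Hspd1 correlated at 0.26 and was lower in both, by -0.08 and -0.05. Of the 6 second probes 3 had the lower then higher order and 2 an unadjusted interaction p under 0.05. The second probes of Hspa1b and Hspb1 were dim, above background on 9 and 11 arrays. For Hsph1, Hsp90aa1, Hspb8 and Hspe1 the array holds 1 probe, so no second reading was had.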

How the data were processed

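Spot intensities of 17 arrays were deposited as written by Agilent Feature Extraction, version 9.1.3.1 per the file headers and 9.5.1.1 per the submitters' processing notes. A deposited table of log2 values covers 19836 probes. Its normalization is not given in the sources used here, and it served as an alternative.

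In limma 3.58.1 (R 4.3.3, package data.table, version 1.17.8), background was corrected by normexp with offset 50 and log2 Cy5/Cy3 ratios were normalized within arrays by loess. Of 43790 spots, 2256 controls and 4 to 43 flagged spots per array were left out. Tested probes had a Cy5 signal flagged well above background on 8 arrays or more. A gene is its brightest probe, named through RefSeq tables (GRCm38.p6). Diets were compared by lmFit and eBayes over 17 arrays with no covariate, at an adjusted p of 0.05, beside exact permutation tests over 24310 labellings. The scripts were tested on simulated data. Plots used Python 3.11.15 with matplotlib 3.10.9. Precision is limited by how many arrays there are.

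The members, the gene lists and the split by scan time were chosen with earlier results of these data known. Genes named beside the members are the 10 most like Hspa1b and the 10 most like Hspd1 among genes without a clone or model name, 3 heat shock response genes in each direction, and adipose and seminal vesicle genes as sample checks. Genes of epididymis, cilia and sperm were named after their values were seen. Lists not printed above were markers of endothelium, mesothelium, epididymis, cilia, spermatids, muscle, blood and T cells, whose means correlated at -0.35 to 0.23 with Hspa1b. Replicate numbers shared by both diets did not pair the arrays: deviations of the 7 pairs correlated at -0.38 to 0.26.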

Additional observations from a re-analysis of the deposited data

Results flagged for a closer look

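The second, dim probe of Hspb1 read 0.81 in HGI 6, far from the other HGI mice, the nearest of which was at 0.14. That gap takes up 0.67 of the range of the 9 HGI mice. It was the only value so far apart among 32 groups of values, and chance sets about 1 in 20 groups apart in this way. The brighter Hspb1 probe read 0.47 in the same mouse, within the range of the others.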

How the results depend on the processing

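None of the 10 members passed the adjusted threshold under any of the 18 settings tried, nor with any 1 array left out. The number of genes called was 0, but 1 with Cy5 intensities alone, 1 with array weights, and 0 to 3 leaving out 1 array each (3 without LGI 7). Pathway genes called were 0 throughout. Members with an unadjusted interaction p under 0.05 by limma numbered 6 or 7 in settings added after seeing the data. The share over all genes was not counted in these settings, apart from 2.41% without HGI 9 and HGI 10. Pairs with r above 0.5 numbered 21, and 17 to 30 in the other settings (30 with median centring) apart from 13 without the 2 arrays farthest from the median.

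Some small diet differences changed sign. Without background correction Hspa1a was at -0.0034 and Hspa1b at -0.0039. With median centring Hsph1 was at 0.00071, Hsp90aa1 at 0.017 and Hspd1 at 0.026. With Cy5 alone Hspa1a was at -0.034, Hspa1b at -0.0901 and Hsph1 at 0.043. With the mean of probes Dnajb1 was at 0.013 and with its second probe at 0.098. In the authors' deposited values Hspa1a was at -0.0046 and Hsph1 at 0.013. With array weights Hspa1a was at -0.14 and Hspa1b at -0.064. In the first 8 arrays Hspa1a was at -0.46, Hspa1b at -0.33, Hspa8 at -0.0505, Hspb1 at -0.23 and Hspe1 at -0.033, and in the later 9 Hsph1 was at 0.39, Dnajb1 at 0.12, Hsp90aa1 at 0.23 and Hspd1 at 0.011. Without HGI 9 and HGI 10 Hspa1a was at -0.12 and Hsp90aa1 at 0.0052. Leaving out 1 array each, Hspa1a ran from -0.16 to 0.12, Hspa1b from -0.085 to 0.074, Hsph1 from -0.13 to 0.029, Hsp90aa1 from -0.11 to 0.018 and Hspd1 from -0.057 to 0.0083. The r of Hspe1 and Hspd1 became 0.20 in the first 8 arrays, 0.52 with median centring, 0.25 with Cy5 alone and 0.40 in the authors' deposited values. The cause was not tested.

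With the replicate number as a block in the 14 arrays that share a number, 0 genes were called, Hsph1 was at 0.0021 and no other member changed sign, and the same arrays gave 0 genes and 0.0021 without the block. Each array lies on its own slide, so a slide block was not run.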
